A study of Sus scrofa with 15 samples.

Results

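The matrix metalloproteinases (MMPs) and their tissue inhibitors (TIMPs) were followed in RNA sequencing of penile corpus cavernosum of the pig, Sus scrofa. The members were 10 genes taken by name, MMP1, MMP2, MMP3, MMP9, MMP12, MMP13, MMP14, MMP19, TIMP1 and TIMP3, of 26654 genes in the deposited tables. The series holds 15 libraries, 3 from each of 5 groups. Normal, defect and implantation A are paired with one another in the study's design, and the group ECs+ implantation is paired with implantation B. The labels give the tissue and the group name of each library. They do not spell out ECs or the difference between the implantations A and B, and give no strain, age or time. Nor do they say that libraries of 1 group are separate animals, so p-values rest on a spread between libraries that may be technical. For ECs+ implantation a further description line repeats the name of a normal sample in all 3 samples, so that group rests on its titles and column names.

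MMPs are zinc-dependent proteases that are made as inactive proenzymes and, once activated, cut collagens, elastin, proteoglycans and basement membrane. TIMPs bind the active site of MMPs and block it. In corpus cavernosum, whose blood spaces are framed by smooth muscle in a collagen-rich wall, these enzymes and inhibitors take part in the turnover of that wall and in wound repair. In bulk tissue such as this, fewer cells of a type and less RNA per cell cannot be told apart.

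Levels of 7 of the 10 members were highest in defect (MMP1, MMP2, MMP3, MMP9, MMP13, MMP14 and TIMP1). MMP12, MMP19 and TIMP3 were highest in implantation B, in normal and in ECs+ implantation, respectively. MMP13 stood at 212 ± 24.3 CPM in defect (SD, n = 3) and at no more than 1.69 CPM in any library of another group, and MMP9 had 0 counts in all 3 ECs+ implantation libraries. Libraries of ECs+ implantation also held the lowest mean levels of MMP1, MMP2, MMP13 and MMP14, beside the highest of TIMP3. CPM is the count scaled to a library total of 1e+06, here with TMM factors of all 15 libraries. The few levels given below for other genes use TMM factors of the comparison's own libraries. In the defect versus normal comparison 63.9% of all genes tested changed at an adjusted p under 0.05, and the 5 other comparisons called 41.8% to 75.8%, so a call alone sets no member apart from the other genes.

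**Figure D1:**
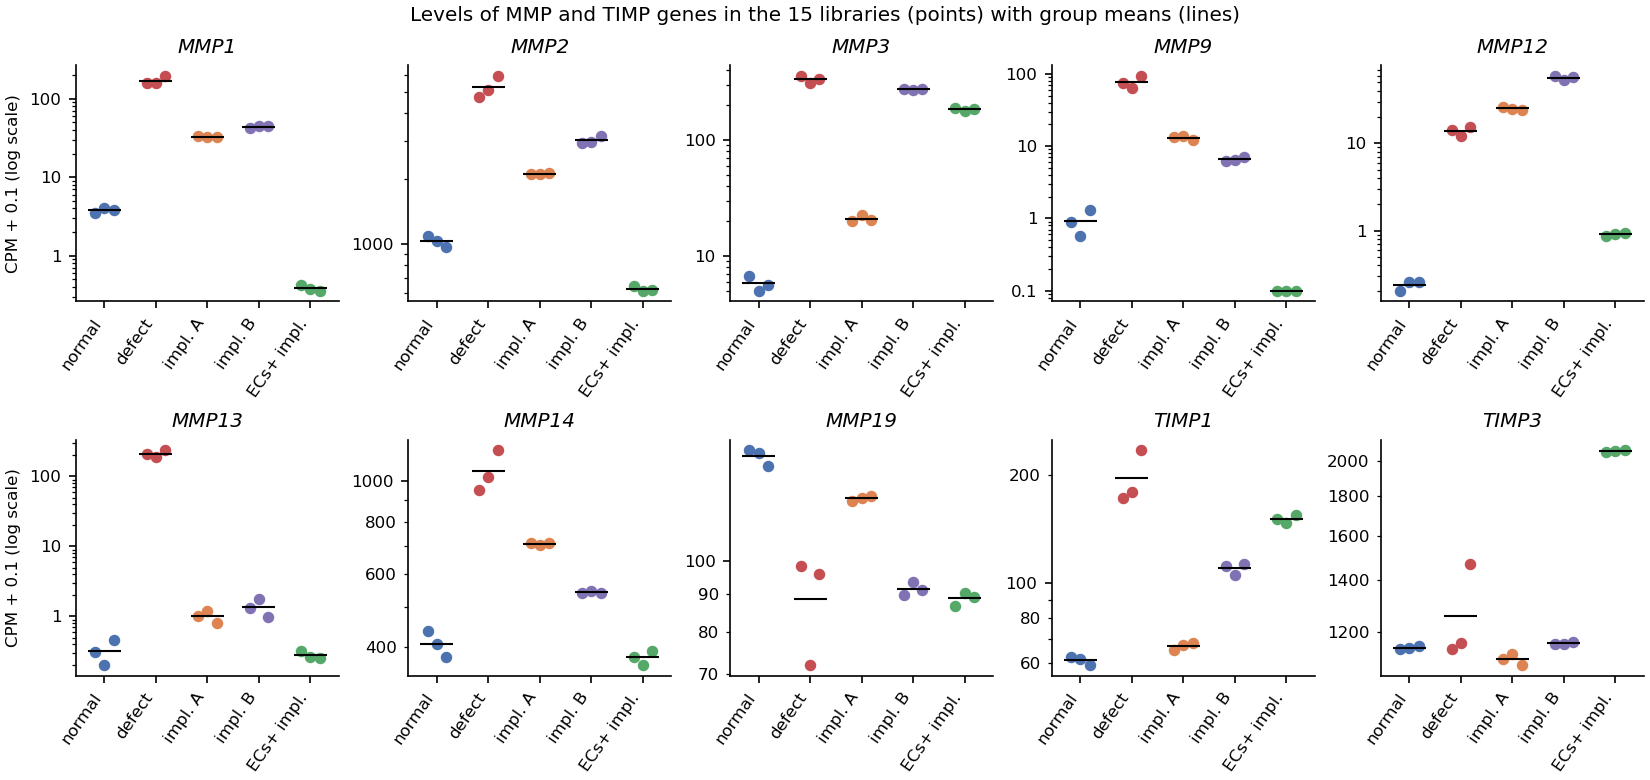
Each panel plots 1 gene, with CPM plus 0.1 on a log axis for the 3 libraries of each of the 5 groups as points and the group mean as a line, and impl. stands for implantation. Defect libraries lie highest for 7 genes, MMP9 sits at 0 CPM in ECs+ implantation, and MMP13 is above 188 CPM in defect and below 1.70 CPM elsewhere.

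Total counts ran from 17234169 to 19644793 in 13 libraries, while defect 1 and defect 2 held 207769 and 250178. Values of those 2 libraries are therefore coarse for scarce members, with 3 counts of MMP12 in each and 16 of MMP9 in each. In them 3 counts, the floor used here, amount to 14.4 and 11.99 CPM, and in the other 13 libraries to 0.153 to 0.174 CPM. TMM factors over all 15 libraries were 1.03, 0.998 and 0.845 in defect 1, 2 and 3, which raises levels in defect 3 against defect 1 and 2. With library size alone MMP1, for example, stood at 163.6, 155.9 and 163.8 CPM in them. Intervals and floors given here cover counting error only. Floors and ratios of pooled counts are scaled by library totals, without TMM factors. The smooth muscle and endothelial markers that define the tissue were present in every group, with summed levels, without TMM factors, of 3333 to 7065 CPM and 1766 to 4759 CPM over the 15 libraries. The 15 keratinocyte and urothelial markers in the table summed to 21.3 to 23.7 CPM in ECs+ implantation and to 2140.4 to 5213 CPM in the other 12 libraries, so ECs+ implantation stands apart in its epithelial transcripts.

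MMP1 and MMP13 are collagenases, which cut the intact triple helix of fibrillar collagen. MMP1 (chromosome 9, 33411738 to 33420205 on Sscrofa11.1) stood at 159, 156 and 194 CPM in defect libraries 1, 2 and 3, at 41.6, 44.2 and 45.05 in implantation B, at 33.3, 31.9 and 32.5 in implantation A, at 3.36, 3.96 and 3.77 in normal and at 0.328, 0.275 and 0.261 in ECs+ implantation. No 2 groups overlapped, and the order of the groups was the same in TPM. MMP1 was 50.8-fold above normal in defect (log2 5.67 ± 0.130 SE, adjusted p = 2.68e-63). It was 5.78-fold lower in implantation A than in defect (log2 -2.53 ± 0.0861 SE) and still 8.78-fold higher in implantation A than in normal (log2 3.13 ± 0.122 SE). ECs+ implantation held only 6, 5 and 5 counts, against 680, 679 and 778 in implantation B (log2 -7.25 ± 0.353 SE, adjusted p = 5.71e-40). By pooled counts the level in implantation B was 132 (95% counting interval 81.1 to 231) times that in ECs+ implantation.

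MMP13 (chromosome 9, 33549003 to 33616700), the collagenase best known from cartilage and bone, was scarce outside defect. It stood at 210.5, 188 and 237 CPM in defect, from 45, 47 and 3539 counts, so the 2 shallow libraries and the deep one gave levels of similar size. Elsewhere it stood at 1.22, 1.69 and 0.868 CPM in implantation B, 0.919, 1.10 and 0.713 in implantation A, 0.210, 0.104 and 0.361 in normal and 0.219, 0.165 and 0.157 in ECs+ implantation. Defect lay far above all other groups, while implantation A and B overlapped, as did normal and ECs+ implantation. The log2 fold change was 9.94 ± 0.432 (SE, adjusted p = 3.15e-68) in defect versus normal and -7.96 ± 0.222 (SE, adjusted p = 4.04e-67) in implantation A versus defect. Because normal held only 4, 2 and 7 counts, the size is loosely bounded. The ratio of pooled defect to pooled normal, without TMM factors, was 807 (95% counting interval 471 to 1516). Of the 3631 pooled defect counts 3539 were from defect 3. Implantation A was 3.93-fold above normal (log2 1.97 ± 0.476 SE, adjusted p = 2.33e-05), on 19, 22 and 14 counts, but did not pass with TPM and a pseudocount of 1, which understates low genes (0.55, adjusted p = 0.0536). ECs+ implantation was 6.90-fold below implantation B (log2 -2.79 ± 0.575 SE, adjusted p = 1.61e-06), on 4, 3 and 3 against 20, 26 and 15 counts. The lncRNA gene LOC110255426 lies inside the MMP13 interval and held 3 to 29 counts in the 13 deep libraries, where MMP13 outside defect held 2 to 26. No source used here says whether reads were counted by strand, so at those low counts reads of the pair cannot be told apart.

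Markers of cartilage and bone, tissues in which MMP13 is known to be made, were set beside it. Of the 12 tested genes 7 rose and 3 fell in defect versus normal, led by COMP, a cartilage matrix protein (4.30 log2), COL2A1, the main cartilage collagen (2.48), IBSP, bone sialoprotein (6.97), and RUNX2, a transcription factor of bone (3.26). BGLAP (-2.36), SPP1 (-0.40) and SOX9 (-0.20) fell, and SP7 (-0.70) and COL9A1 (-0.03) did not pass. COL10A1, the collagen that marks hypertrophic cartilage, had 0 counts in all 3 defect libraries. The summed list stood at 1927 to 2112 CPM in defect, 1739.6 to 1755 in implantation B, 1082 to 1094 in implantation A, 735 to 757 in ECs+ implantation and 618 to 645 in normal. In defect much of that sum was COMP and ACAN, at 1195 ± 149 and 580 ± 83.7 CPM (SD, n = 3). Implantation B was near defect for the summed list but at 1.26 ± 0.414 CPM for MMP13 (SD, n = 3). The part of such cells in the MMP13 level was not tested.

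MMP2 and MMP9 are gelatinases, which cut denatured collagen and type IV collagen of basement membranes. MMP2 (chromosome 6, 30059247 to 30087031) was the most abundant MMP in every group. It stood at 4766, 5124 and 5946 CPM in defect, 2939, 2969 and 3151 in implantation B, 2112, 2101 and 2125 in implantation A, 1089, 1032 and 976 in normal and 644, 613 and 616 in ECs+ implantation. These ranges did not overlap. Defect was 5.19-fold above normal (log2 2.38 ± 0.0806 SE, adjusted p = 1.63e-42), and implantation A lay between them, 2.54-fold below defect and 2.04-fold above normal. ECs+ implantation was 4.96-fold below implantation B (log2 -2.31 ± 0.0237 SE, adjusted p = 2.96e-32).

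MMP9 (chromosome 17, 48179690 to 48186782), which neutrophils, macrophages and wound-edge epithelium are known to make, was scarcer and steeper. Its levels were 74.8, 64.1 and 93.6 CPM in defect, 13.5, 13.5 and 12.1 in implantation A, 6.05, 6.38 and 6.89 in implantation B and 0.787, 0.469 and 1.19 in normal, and 0 in the 3 ECs+ implantation libraries. No groups overlapped, and implantation A was above implantation B, the reverse of their order for MMP2. Defect was 110.0-fold above normal (log2 6.78 ± 0.249 SE, adjusted p = 2.68e-55), where normal held 15, 9 and 23 counts. Implantation A was 6.96-fold below defect (log2 -2.80 ± 0.115 SE) and 15.8-fold above normal (log2 3.98 ± 0.245 SE). Implantation B held 316 counts over its 3 libraries against 0 in ECs+ implantation. With the 3 ECs+ implantation libraries together set to 3 counts, 0.0550 CPM, MMP9 was 104-fold lower there than in implantation B and 16.3-fold lower than in normal. Counting error of implantation B and normal is not in these folds. Normal is not paired with ECs+ implantation in the design, so group and any batch cannot be told apart there.

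Epithelial and neutrophil markers moved with MMP9 in ECs+ implantation versus implantation B. Of 11 tested keratinocyte and urothelial markers 0 rose and 9 fell, with the keratin KRT4 at 0.373 ± 0.0369 CPM in ECs+ implantation against 1824 ± 19.96 in implantation B. Of 8 tested neutrophil markers 0 rose and 7 fell, and the summed list stood at 5.97 to 7.44 CPM in ECs+ implantation and 1329 to 1338 in implantation B. Furthest down were S100A8 (-11.50 log2), S100A12 (-9.73) and S100A9 (-9.61), which squamous epithelium also expresses, while MPO, a defining neutrophil enzyme, had 0 counts in implantation B and in defect. In defect versus normal 7 of 8 neutrophil markers rose and 0 fell, and the summed lists stood at 1015 to 1299 against 524 to 544 CPM for neutrophils and 4972 to 5213 against 2140.4 to 2229.9 CPM for epithelium. The lists did not follow MMP9 in every group. In implantation A neutrophil markers summed to 1127 to 1171 CPM and epithelial markers to 4459 to 4493, and epithelial markers to 4442 to 4521 in implantation B. In implantation B versus implantation A 8 of 8 tested neutrophil markers rose, while MMP9 was lower (-1.01 log2). The part of either cell type in the MMP9 levels was not tested.

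**Figure D2:**
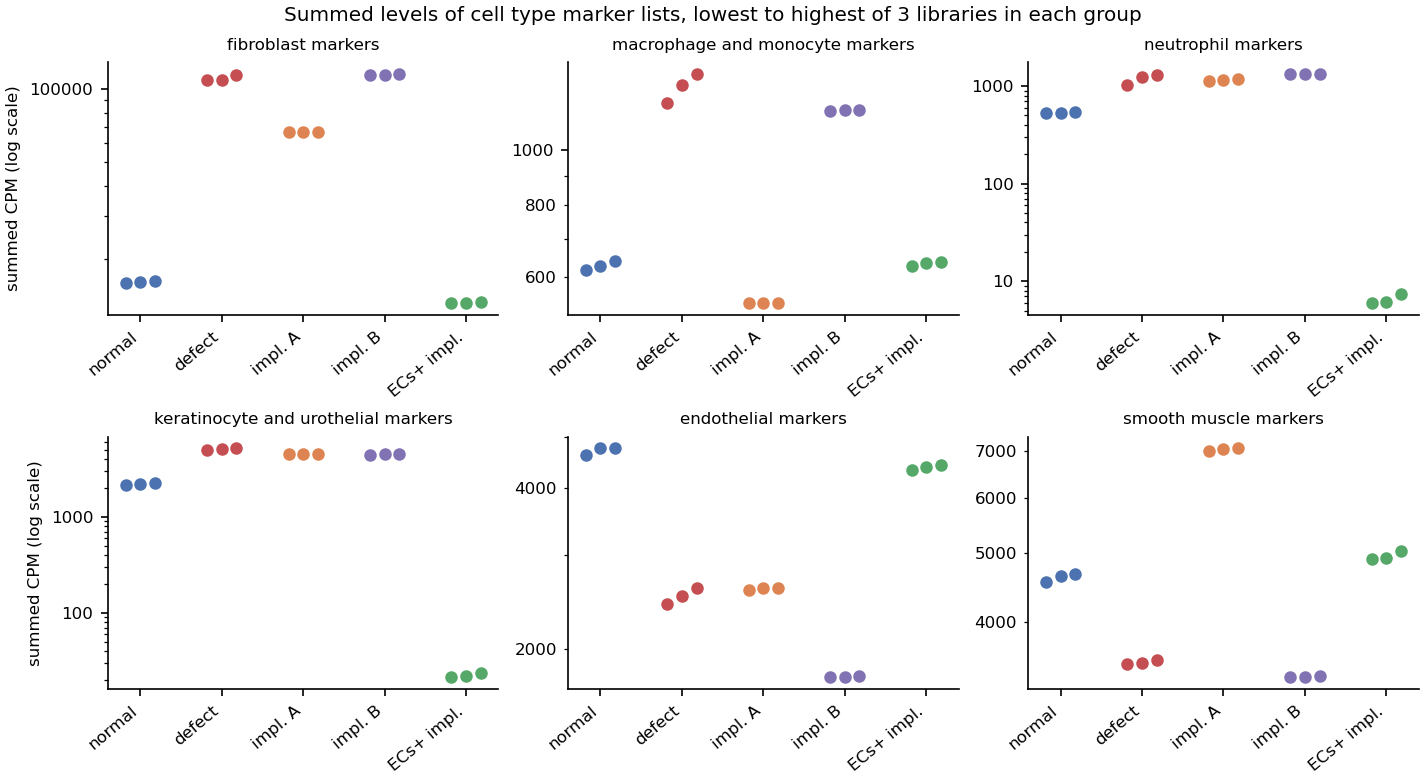
Each panel shows a marker list, with its summed CPM without TMM factors on a log axis and 3 points per group drawn from the lowest to the highest library, and impl. stands for implantation. Neutrophil markers are at 5.97 to 7.44 CPM and keratinocyte and urothelial markers at 21.3 to 23.7 CPM in ECs+ implantation, far under the other groups.

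MMP3 (chromosome 9, 33446969 to 33453995), stromelysin 1, cuts proteoglycans and fibronectin and activates other proMMPs. The RefSeq table lists MMP10, a near relative, as a synonym of this entry, so the row is not split between them. Its levels were 355, 312 and 338 CPM in defect, 275, 268 and 275 in implantation B, 189, 178 and 183 in ECs+ implantation, 19.98, 22.3 and 20.3 in implantation A and 6.61, 4.95 and 5.57 in normal. The groups did not overlap, and unlike the collagenases and gelatinases MMP3 stayed far above normal in ECs+ implantation. Defect was 58.97-fold above normal (log2 5.88 ± 0.112 SE, adjusted p = 3.15e-68), and implantation A was 16.2-fold below defect (log2 -4.02 ± 0.0848 SE, adjusted p = 2.76e-60). ECs+ implantation was 1.53-fold below implantation B (log2 -0.61 ± 0.0294 SE, adjusted p = 1.42e-24). Implantation B was 13.1-fold above implantation A (log2 3.71 ± 0.0601 SE, adjusted p = 1.71e-61), by far the widest gap of any member between those groups, which are not a pair of the design and in which group and any batch cannot be told apart.

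MMP12 (chromosome 9, 33473625 to 33483630), the metalloelastase named after macrophages, was the only member with its highest mean level in implantation B. Levels there were 59.2, 53.7 and 57.3 CPM, followed by 26.1, 24.9 and 24.2 in implantation A, 14.03, 12.01 and 15.2 in defect, 0.766, 0.824 and 0.836 in ECs+ implantation and 0.105, 0.156 and 0.155 in normal. All groups were apart, but normal rested on 2, 3 and 3 counts and the first 2 defect libraries on 3 counts each. Against normal the log2 fold change was 6.68 ± 0.547 (SE, adjusted p = 2.68e-35) in defect, 7.41 ± 0.535 (SE, adjusted p = 6.34e-48) in implantation A and 8.60 ± 0.505 (SE, adjusted p = 9.93e-55) in implantation B. By pooled counts implantation B stood at 331 (95% counting interval 168 to 767) times normal. Implantation A was 1.66-fold above defect (log2 0.73 ± 0.144 SE, adjusted p = 1.34e-05), against the direction of the other MMPs but MMP19. Without defect 3 that log2 fold change was 0.96 and did not pass (adjusted p = 0.32). ECs+ implantation was 71.4-fold below implantation B (log2 -6.16 ± 0.214 SE, adjusted p = 6.95e-42).

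Macrophage and monocyte markers did not follow MMP12 group by group. Their summed level was 1208 to 1358 CPM in defect, 1167 to 1174 in implantation B, 627 to 636 in ECs+ implantation, 617 to 641 in normal and 541 to 542 in implantation A. In implantation A versus defect 0 rose and 16 fell of 16 tested, led by LYZ, lysozyme (-5.34 log2), CD163, a scavenger receptor (-2.53), and MRC1, the mannose receptor (-2.30), while MMP12 rose. In ECs+ implantation versus implantation B 1 rose and 14 fell, with CSF1R, the receptor that maintains macrophages, at -2.04, CD163 at -2.94 and MMP12 at -6.16. All 17 markers in the table had counts in every group. Their part in the MMP12 levels was not tested.

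MMP1, MMP3, MMP12 and MMP13 lie in 1 cluster of 8 MMP genes on chromosome 9, which spans 402.1 kb from 33214590 to 33616700 and also holds MMP7, MMP20, MMP27 and MMP8. The 4 neighbours did not share a profile. Their highest groups were defect for MMP1, MMP3 and MMP13 and implantation B for MMP12. In ECs+ implantation MMP3 stood at 184 ± 5.33 CPM and MMP1 and MMP12, on either side of it, at 0.288 ± 0.0355 and 0.809 ± 0.0373 CPM (SD, n = 3). Of the other 4 genes of the cluster, MMP8, the neutrophil collagenase, rose in defect versus normal (5.90 log2) on 3, 1 and 33 counts in defect, and MMP27 rose (4.38). MMP7 and MMP20 had too few counts to be tested.

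MMP14 (chromosome 7, 76174502 to 76185931), the membrane-type enzyme that cuts collagen at the cell surface and activates proMMP2, moved in the same direction as MMP2 with smaller folds in each of the 4 comparisons of the design. Levels were 954, 1025 and 1185 CPM in defect, 709.8, 702 and 713 in implantation A, 539, 546 and 539.6 in implantation B, 438, 407 and 379 in normal and 380.3, 364 and 392 in ECs+ implantation. Only normal and ECs+ implantation overlapped. The log2 fold change was 1.44 ± 0.0784 (SE, adjusted p = 1.1e-29) in defect versus normal, -0.65 ± 0.0780 (SE, adjusted p = 2.01e-11) in implantation A versus defect, 0.79 ± 0.0669 (SE, adjusted p = 2.65e-18) in implantation A versus normal and -0.55 ± 0.0249 (SE, adjusted p = 6.84e-26) in ECs+ implantation versus implantation B. Against implantation A, implantation B was lower for MMP14 (log2 -0.39 ± 0.0483 SE, adjusted p = 1.95e-10) and higher for MMP2 (log2 0.52 ± 0.0532 SE, adjusted p = 1.8e-13).

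MMP19 (chromosome 5, 21279514 to 21285943), an MMP of basement membrane and quiescent tissue, was the only one of the 8 MMP members that was highest in normal. Its levels were 141, 140.3 and 135 CPM in normal, 121, 122 and 123 in implantation A, 89.7, 93.5 and 91.02 in implantation B, 86.8, 90.3 and 89.2 in ECs+ implantation and 98.2, 72.1 and 95.8 in defect. Normal and implantation A stood apart from each other and from the rest, while implantation B, ECs+ implantation and defect overlapped, and their order changed with the scaling. Defect was lower than normal (log2 -0.55 ± 0.0822 SE, adjusted p = 1.37e-08), and implantation A was higher than defect (log2 0.36 ± 0.0824 SE, adjusted p = 0.000227) and slightly lower than normal (log2 -0.19 ± 0.0572 SE, adjusted p = 0.00237). Without defect 3 the value of implantation A versus defect was 0.53 and did not pass (adjusted p = 0.116). In implantation A versus normal MMP19 did not pass with TPM (-0.09, adjusted p = 0.71, pseudocount 1). ECs+ implantation versus implantation B gave -0.08 ± 0.0412 (SE, adjusted p = 0.0772), which did not pass. That pair was higher with library size as the only scaling (0.16, adjusted p = 0.000547) and lower with TPM (-0.33, adjusted p = 6.91e-05).

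Among the inhibitors, TIMP1 (chromosome X, 42103251 to 42106289), a soluble inhibitor of most MMPs that also binds proMMP9, was highest in defect and next highest in ECs+ implantation. Its levels were 173, 180.2 and 235 CPM in defect, 151, 147 and 155 in ECs+ implantation, 111, 106 and 113 in implantation B, 65.3, 67.3 and 68.1 in implantation A and 62.4, 61.5 and 59.3 in normal, with no overlap between groups. Defect was 3.70-fold above normal (log2 1.89 ± 0.0787 SE, adjusted p = 2.76e-38) and implantation A 3.38-fold below defect (log2 -1.76 ± 0.0781 SE, adjusted p = 7.52e-36). Implantation A versus normal did not pass (log2 0.13 ± 0.0638 SE, adjusted p = 0.0701), though it did in fits of all 15 libraries (0.13, adjusted p = 0.0301) or of the pair alone (0.14, adjusted p = 0.0225). ECs+ implantation was 1.34-fold above implantation B (log2 0.42 ± 0.0364 SE, adjusted p = 8.6e-15), and implantation B 1.81-fold above normal (log2 0.85 ± 0.0532 SE, adjusted p = 2.19e-24).

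TIMP3 (chromosome 5, 12185816 to 12242599), which is bound to the matrix and also inhibits ADAM and ADAMTS proteases, differed little among the groups other than ECs+ implantation. It stood at 2054, 2056 and 2064 CPM in ECs+ implantation, 1141, 1161 and 1469 in defect, 1157, 1156 and 1165 in implantation B, 1139.7, 1145 and 1151 in normal and 1108, 1122 and 1088 in implantation A. ECs+ implantation lay clearly above the other groups, and defect 3 stood above defect 1 and 2, which were close to implantation B and normal. That gap within defect was narrower without TMM factors, at 1174, 1159 and 1241 CPM in defect 1, 2 and 3. In TPM they stood at 446, 448 and 479. ECs+ implantation was 1.73-fold above implantation B (log2 0.79 ± 0.0183 SE, adjusted p = 1.88e-38). The other differences were small and not stable. Defect versus normal gave 0.21 ± 0.0815 (SE, adjusted p = 0.0162), but 0.01 without defect 3 and -0.05 with library size as the only scaling, neither of which passed (adjusted p = 0.94 and 0.235). Implantation A versus defect gave -0.27 ± 0.0815 (SE, adjusted p = 0.00466), but -0.06 without defect 3 (adjusted p = 0.688), and a fit with the replicate number as a block gave -0.23 (adjusted p = 0.0623) there and 0.17 (adjusted p = 0.12) in defect versus normal. Implantation A versus normal (log2 -0.05 ± 0.0706 SE, adjusted p = 0.518) and implantation B versus normal (log2 0.02 ± 0.0502 SE, adjusted p = 0.722) did not pass, although both passed as lower with library size as the only scaling (-0.11, adjusted p = 0.00267, and -0.29, adjusted p = 1e-14) and with DESeq2 or RLE scaling. Implantation B versus normal also passed as lower with TPM, without normal 2 (-0.13, adjusted p = 0.00443) and without normal 3 (-0.135, adjusted p = 5.11e-05), so its call depends on the scaling and on either of these libraries. TIMP1 and TIMP3 lie within the intervals of SYN1 and SYN3, which held at most 79 and 41 counts in any of the 13 deep libraries.

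To compare levels between genes, the deposited TPM values were summed within each library. TPM is by its definition scaled for transcript length, though how these values were made is not given. They were used without TMM factors, so gaps between groups can depart from the folds above. For TIMP3, ECs+ implantation was 1.44-fold above implantation B by mean TPM, against 1.73-fold by the fit with TMM. The 8 MMPs came to 4289 to 4370.3 TPM in defect, 2321 to 2445 in implantation B, 1903 to 1914 in implantation A, 876 to 969 in normal and 626 to 642 in ECs+ implantation. TIMP1 and TIMP3 together came to 1139 to 1259, 784 to 810.1, 713 to 734, 659 to 660.0 and 1034 to 1063 TPM in the same order of groups. The ratio of summed MMP to summed TIMP TPM was 3.65 ± 0.202 in defect, 2.97 ± 0.0599 in implantation B, 2.65 ± 0.0347 in implantation A, 1.40 ± 0.0701 in normal and 0.609 ± 0.0109 in ECs+ implantation (SD, n = 3). The ratio did not overlap between groups and was under 1 in ECs+ implantation, but which groups lie under 1 depends on the TIMPs summed. TIMP2, no member, had mean levels over 3 libraries of 541 TPM in normal, 599 in ECs+ implantation, 1132 in implantation A, 1999.7 in implantation B and 2285 in defect. With TIMP2 and TIMP4 added, a choice made after seeing the data, the ratio was 1.25 ± 0.103 in defect, 1.02 ± 0.00479 in implantation A, 0.846 ± 0.0106 in implantation B, 0.764 ± 0.0224 in normal and 0.385 ± 0.00351 in ECs+ implantation (SD, n = 3). It was then under 1 in normal and implantation B as well, and implantation A lay above implantation B. The other MMP genes were left out of both ratios. MMP23B, the most abundant of them by TPM, stood at 305, 275 and 261 TPM in normal and 115, 129 and 123 in implantation B. Which groups lie under 1, and their order, therefore hold only for the 8 MMPs summed. These ratios are of transcripts and say nothing of protein or activity.

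MMP2 made up 65.6 ± 0.0594% of the summed MMP TPM in normal, 69.3 ± 1.54% in defect, 69.6 ± 0.110% in implantation A and 69.03 ± 0.742% in implantation B, but 43.4 ± 0.578% in ECs+ implantation. MMP3 took 26.6 ± 0.225% there, 12.9 ± 0.325% in implantation B, 9.17 ± 1.13% in defect, 1.42 ± 0.0893% in implantation A and 0.744 ± 0.0895% in normal. The collagenases MMP1 and MMP13 together reached 282 to 304 TPM in defect, with MMP13 at 137 ± 8.57 TPM and MMP1 at 157 ± 3.73. In implantation A and B they came to 33.7 to 34.7 and 37.5 to 40.4 TPM, nearly all of it MMP1. Normal held 3.30 to 3.83 TPM and ECs+ implantation 0.271 to 0.345. Between the inhibitors the balance turned as well. TIMP1 stood at 1.59 ± 0.0384 times TIMP3 in defect and below it elsewhere, at 0.972 ± 0.0311 in implantation B, 0.790 ± 0.0146 in ECs+ implantation, 0.609 ± 0.0203 in implantation A and 0.523 ± 0.0124 in normal (SD, n = 3).

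**Figure D3:**
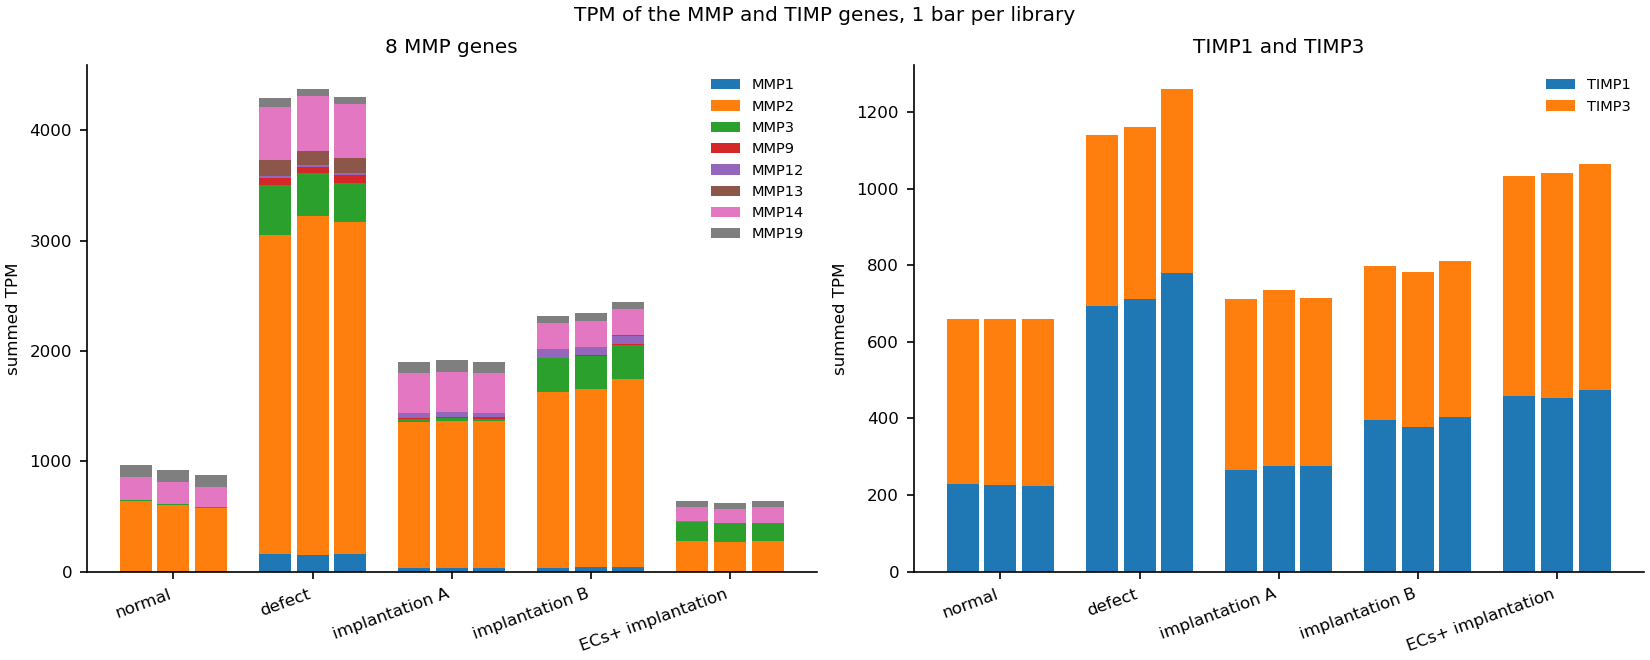
Stacked bars give the deposited TPM of the 8 MMP genes (left) and of TIMP1 and TIMP3 (right), with 1 bar for each of the 15 libraries and both axes starting at 0. The MMP bars reach 4289 to 4370.3 TPM in defect and 626 to 642 in ECs+ implantation, where the TIMP bars reach 1034 to 1063.

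The defect group was set against normal to ask what the defect changed. Of the 10 members 9 rose and 1, MMP19, fell, the rise of TIMP3 being the one that rests on defect 3 and on the scaling, with a median log2 fold change of 4.02 against -0.05 over the 17855 genes tested, of which 32% rose and 31.9% fell. Groups did not overlap for 9 members, as for 50.7% of all genes. Members were chosen with earlier results of these data known, so their medians here and below are descriptions and no test. Without defect 3 the count of all genes called fell from 11407 to 3521. Other proteins that steer MMPs were mostly higher too. Of 25 tested activators and inhibitors of MMPs 20 rose and 1 fell (median 1.32), among them SERPINE2, an inhibitor of plasminogen activators (3.12), PCSK6, a proprotein convertase (1.96), and A2M, a broad protease trap (1.97). ADAM and ADAMTS proteases, relatives that shed receptors and cut proteoglycans or procollagen, showed 17 of 28 higher and 8 lower (median 0.83), led by ADAMDEC1 (9.09) and the procollagen protease ADAMTS2 (3.55). Among genes whose products MMPs cut, collagens and other matrix proteins, 16 of 18 tested rose and 1 fell (median log2 1.37), with TNC, tenascin C, at 3.49 and DCN, decorin, at 3.60. Fibroblast markers, which share COL1A1 and DCN among others with that list, moved with them (11 of 13 rose and 0 fell). They summed to 108534 to 113691 CPM in defect and 15996 to 16269 in normal. COL1A1 alone stood at 73949 ± 7554 CPM in defect and 8389 ± 348 in normal (SD, n = 3), so the sum is largely COL1A1 transcript. The part of fibroblasts in the rise of the members was not tested.

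The remaining MMP and TIMP genes did not rise as a block in defect. Of 12 tested 5 rose and 6 fell, with a median log2 fold change of -0.58. TIMP2, which joins MMP14 in activating proMMP2, was 4.22-fold higher, at 3233 ± 334 CPM in defect against 779.7 ± 14.3 in normal, and MMP16, another membrane-type MMP, rose (1.997), as did MMP8 (5.90), MMP27 (4.38) and MMP17 (2.07). MMP23B (-1.38), MMP11, stromelysin 3 (-1.24), TIMP4 (-1.05), MMP25 (-0.86), MMP28 (-0.83) and MMP15 (-0.53) fell, and MMP24 (-0.63, adjusted p = 0.0617) did not pass. Defect 1 and 2 held 0 and 0 counts of MMP25, 0 and 2 of MMP17, 2 and 2 of TIMP4, 1 and 1 of MMP24 and 10 and 7 of MMP15. Values of these genes in comparisons with defect rest mainly on defect 3. For MMP15 defect 1 stood at 46.8 CPM with TMM factors of all 15 libraries. That is above normal, at 34.5 to 40.1 CPM, and within implantation A, at 46.1 to 49.5 CPM. Like MMP19, MMP11, MMP23B and MMP28 had their highest mean level of the 5 groups in normal, at 289.6 to 318, 181 to 214 and 61.9 to 66.3 CPM there with TMM factors of all 15 libraries.

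**Figure D4:**
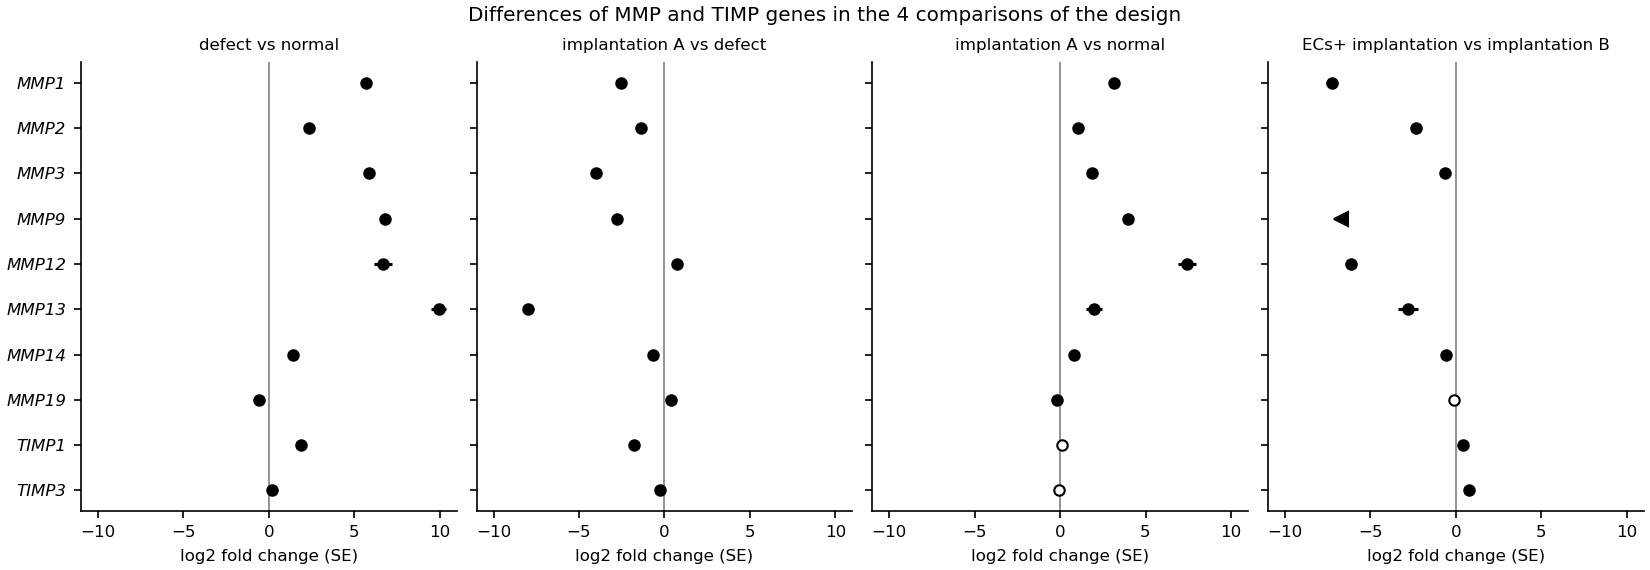
Points give the log2 fold change of each member with its SE as a bar, often shorter than the point, in the 4 comparisons of the design, filled where the adjusted p was under 0.05. The triangle for MMP9 marks the value against a floor of 3 counts, 104-fold lower. Rises dominate defect versus normal, with MMP13 at 9.94, and in ECs+ implantation versus implantation B the 2 TIMPs are the genes on the higher side.

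The difference between tissue with an implant and tissue with a defect was read from implantation A versus defect. Of the 10 members 8 fell and 2, MMP12 and MMP19, rose (median log2 -1.55, against 0.02 over all genes, of which 20.4% rose and 21.4% fell). No member's libraries overlapped between the groups, as for 40.3% of all genes, and without defect 3 the count of all genes called was 1455 in place of 7465 and that of members 7. Among activators and inhibitors of MMPs, 2 of 25 tested rose and 17 fell (median log2 -0.50), with SERPINE2 (-2.39), PCSK6 (-1.39), CTSK, a collagen-cutting lysosomal protease (-1.17), and A2M (-1.24) in the lead. Among ADAM and ADAMTS genes, 7 of 28 tested rose and 15 fell (median log2 -0.37), with ADAMDEC1 (-8.38), ADAMTS2 (-1.86) and ADAMTS5, an aggrecanase (-1.53), lower and ADAMTS17 (1.44) higher. For the matrix substrates, 1 of 18 tested rose and 14 fell (median log2 -0.72). Fibroblast markers fell in 11 of 13 and macrophage markers in 16 of 16 cases, and their part in the members' fall was not tested. Among the other MMP and TIMP genes, 6 of 12 tested rose and 4 fell (median log2 0.24), with TIMP2 (-1.14), MMP16 (-1.08), MMP8 (-4.37) and MMP27 (-1.54) lower and TIMP4 (1.55), MMP25 (1.03), MMP15 (0.89), MMP23B (0.68), MMP28 (0.68) and MMP11 (0.47) higher, and MMP17 (-0.24, adjusted p = 0.432) and MMP24 (0.02, adjusted p = 0.976) not passing.

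Against normal, the comparison that asks how far implanted tissue still differed from intact tissue, implantation A had 7 members higher, 1 lower (MMP19) and 2 not passing (TIMP1 and TIMP3). The median was 1.45 against -0.03 over all genes, of which 64.5% were called, 32.2% higher and 32.3% lower. No member's libraries overlapped between the groups, as for 68.8% of all genes. The 7 that rose were all MMPs, from MMP12 (7.41), MMP9 (3.98) and MMP1 (3.13) down to MMP14 (0.79). Among the other MMP and TIMP genes, 6 of 12 tested rose and 4 fell (median log2 0.43), TIMP2 (0.94), MMP16 (0.91), MMP17 (1.83), MMP27 (2.83), TIMP4 (0.49) and MMP15 (0.36) being higher and MMP11 (-0.77), MMP23B (-0.69), MMP24 (-0.61) and MMP28 (-0.15) lower. MMP8 (1.53, adjusted p = 0.15) and MMP25 (0.17, adjusted p = 0.171) did not pass. Among activators and inhibitors, 19 of 25 tested rose and 2 fell (median log2 0.60). Among ADAM and ADAMTS genes, 18 of 28 tested rose and 8 fell (median log2 0.74), with ADAMTS2 (1.69), ADAMTS1 (1.25) and ADAMTS12 (1.79) higher and ADAM15 (-1.05) lower. Defect, implantation A and normal share one another's libraries across these 3 comparisons, so their fold changes are not independent. Fibroblast markers, COL1A1 among them, summed to 66522 to 66708 CPM in implantation A, between normal and defect, and macrophage markers were 3 higher and 8 lower of 16 there.

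The other pair of the design sets ECs+ implantation against implantation B. Of the 10 members 7 fell, all MMPs, both TIMPs rose, and MMP19 did not pass. The median was -1.46 against 0.02 over 17204 genes tested, of which 37.8% rose and 38.1% fell, and with CPM scaled within these 6 libraries no member's groups overlapped, as for 77.3% of all genes. Among the other MMP and TIMP genes, 4 of 11 tested rose and 6 fell (median log2 -0.79). TIMP2 was 2.80-fold lower, at 942 ± 20.03 CPM in ECs+ implantation against 2636 ± 41.1 in implantation B (SD, n = 3), against the direction of TIMP1 and TIMP3, while TIMP4 rose (1.07). MMP11 (1.03), MMP28 (0.65) and MMP24 (1.71) were higher, MMP17 (-2.58), MMP25 (-1.82), MMP27 (-1.64), MMP16 (-1.15) and MMP15 (-0.79) lower, and MMP23B (0.04, adjusted p = 0.456) did not pass. MMP27 rested on few counts, 5, 1 and 17 in ECs+ implantation against 15, 26 and 21 in implantation B. A2M was the leading activator or inhibitor and rose 4.93-fold, at 572 ± 1.80 CPM in ECs+ implantation against 116 ± 2.24 in implantation B, while 19 of 25 in that list fell (median log2 -0.91), the hyaluronan receptor CD44 (-1.89) and LCN2, which binds MMP9 (-1.65), among them.

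For ADAM and ADAMTS genes in the same pair, 4 of 28 tested rose and 20 fell (median log2 -0.88), with ADAMTS2 (-2.89), ADAMTS1 (-2.34), ADAMTS17 (-3.39) and ADAM10, a sheddase (-3.07), in the lead. Transcription factors and cytokines that act on MMP genes showed 21 of 26 lower (median log2 -1.53), JUNB (-2.24), FOSB (-1.36) and FOSL2 (-2.13), all parts of AP-1, and the epithelial factor ELF3 (-8.40) first among them. Without TMM factors that list summed to 3788 to 3825 CPM in ECs+ implantation and 7815 to 7875 in implantation B. It was lower in the other groups, at 1992 to 2040 CPM in implantation A, 1359 to 1502 in defect and 1308 to 1395 in normal. For matrix substrates, 2 of 18 tested rose and 16 fell (median log2 -1.41), with COL1A1, the main chain of type I collagen, at -4.39. Fibroblast markers, COL1A1 among them, summed to 13243 to 13366 CPM in ECs+ implantation and 113631 to 115546 in implantation B, where 1 rose and 12 fell of 13. Endothelial markers summed to 4331 to 4414 and 1766 to 1774 CPM, where 11 rose and 1 fell of 12. The epithelial list, given above with MMP9, was at 21.3 to 23.7 CPM in ECs+ implantation, with KRT15 and UPK2 at 0 counts. The part of these cell types and factors in the fall of the MMPs and the rise of the TIMPs was not tested.

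Implantation B, outside the pairs of the design, was also set against implantation A and normal in a fit of all 15 libraries, in which group and any batch cannot be told apart. Against implantation A 5 members were higher, 3 lower (MMP9, MMP14 and MMP19) and 2 did not pass (MMP13 and TIMP3), where 50.8% of all genes were called, 27.2% higher and 23.6% lower. Libraries did not overlap for 9 members, as for 61% of all genes. MMP3 (3.71), MMP12 (1.18) and TIMP1 (0.72) led the rises. MMP1 (0.42) did not pass with TPM (0.20, adjusted p = 0.0788, pseudocount 1). Beside them stood transcription factors of the AP-1 family that act on MMP promoters, with FOSB at 2671 ± 27.1 CPM in implantation B against 51.9 ± 1.29 in implantation A and FOS at 2419 ± 9.32 CPM in implantation B against 85.01 ± 4.12 in implantation A (SD, n = 3), and in that list 20 of 26 tested rose and 3 fell (median log2 0.77). Macrophage markers were higher in 16 of 16 and neutrophil markers in 8 of 8. The part of these cells and of the AP-1 factors in the members' levels was not tested. Against normal 8 members were higher, MMP19 was lower and TIMP3 did not pass, though it passed as lower under the alternatives given with its levels, where 73.8% of all genes were called, 37.1% higher and 36.7% lower, and no member's libraries overlapped, as for 75.5% of all genes. Among the other MMP and TIMP genes against implantation A, 3 of 12 tested rose and 7 fell (median log2 -0.50), with TIMP2 (0.91), MMP16 (1.22) and MMP8 (1.88) higher, MMP25 (-1.57), MMP11 (-0.82), MMP28 (-0.82), TIMP4 (-0.81), MMP15 (-0.78), MMP24 (-0.59) and MMP23B (-0.41) lower, and MMP17 (-0.36) and MMP27 (0.67) not passing. MMP8 rested on 8, 1 and 13 counts in implantation B, 1, 4 and 2 in implantation A and 0, 0 and 2 in normal. Its libraries overlapped between implantation A and B. Against normal 5 of 12 tested rose and 7 fell (median log2 -0.36), and the 5 that rose were MMP27 (3.51), MMP8 (3.42), MMP16 (2.14), TIMP2 (1.86) and MMP17 (1.48), while MMP11 (-1.59), MMP25 (-1.40), MMP24 (-1.20), MMP23B (-1.10), MMP28 (-0.97), MMP15 (-0.41) and TIMP4 (-0.32) fell.

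FOS was not highest in defect. It stood at 14.8 ± 10.1 CPM in defect, 87.8 ± 4.21 in implantation A and 2.98 ± 0.528 in normal (SD, n = 3). Among the factors and cytokines in defect versus normal 16 of 25 tested rose and 5 fell (median log2 0.72), led by RUNX1 (3.69), JUNB (1.81), RUNX2 (3.26) and FOSL2 (1.57). In implantation A versus defect 6 rose and 12 fell, where FOSB (3.68), FOS (2.46) and JUN (1.42) were higher and RUNX1 (-1.75) lower.

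The genes whose log2 CPM followed 4 of the members most closely over the 13 deep libraries were taken from 14662 genes with a symbol. These libraries form 5 groups, only 1 of them is from defect, and many genes differ between the groups, so Pearson's r, given in parentheses, describes a shared order of groups and no more. Closest to MMP2 were SLCO2A1 (0.997), SMOC2 (0.996) and FZD1 (0.992). Closest to MMP13 were COTL1 (0.981), ENPP2 (0.967) and XRN2 (0.962). MMP3 was followed by PLP2 (0.993), NPTXR (0.993) and ARL6IP5 (0.989), and TIMP1 by OPTN (0.989), C1S (0.986) and CD63 (0.984).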

How the data were processed

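Polyadenylated RNA of 15 samples was sequenced from TruSeq libraries, per the labels. Tools named in the submitters' processing notes are fastp, HISAT2, HTSeq and DESeq2, with no settings, and the build is Sscrofa11.1. The authors deposited raw counts per gene and TPM values, and no source used here says how the TPM were made. Columns were matched to samples by title, and 99.9% of symbols matched RefSeq genes of that build, the source of coordinates.

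Counts were tested with edgeR 4.0.16 in R 4.3.3 (filterByExpr, TMM, robust glmQLFit and glmQLFTest, two-sided, Benjamini-Hochberg over all genes tested, threshold 0.05). Normal, defect and implantation A shared a fit of 9 libraries, implantation B and ECs+ implantation one of 6, and other pairs one of 15. All 10 members passed filterByExpr in these 3 fits. SEs are Wald errors of the fitted model, while p-values come from its F test. Alternatives used DESeq2 1.42.0, limma 3.58.1 on log2 of TPM plus 1 or 0.1, other scalings and filters, a threshold of 0.01, a replicate block, other library sets and leaving out each library. That the order of levels was repeated with library size and TPM was decided after seeing the data. Scripts were tested on simulated counts. Members, lists and tests were chosen with earlier results of these data known. The text names every member, every tested MMP or TIMP, up to 4 genes per other list by smallest adjusted p (some markers chosen after their values were seen), and the 3 genes most like each of 4 members. One gene that the rule would name is not reported here. Sequences were not used here.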

Additional observations from a re-analysis of the deposited data

How the results depend on the processing

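Of 60 member fold changes, 10 members in 6 comparisons, 48 kept their direction and side of the threshold under every alternative run, and 12 did not. Of 1009 values under alternatives 961 kept both, 20 lost the call, 13 gained one and 15 turned direction. The turns were in TIMP3 and MMP19 alone. TIMP3 turned with library size as the only scaling to -0.053 in defect versus normal, -0.18 in implantation B versus A and -0.29 in implantation B versus normal, where DESeq2 gave -0.092, RLE scaling -0.092, a filter of 1 CPM in 3 libraries -0.002, TPM -0.099 with either pseudocount, and leaving out 1 normal library at a time -0.135 to 0.069, with -0.13 without normal 2. Of these implantation B versus normal values all those below 0 passed the test as lower except that of the 1 CPM filter. With TPM it turned to 0.048 in implantation A versus normal with either pseudocount, and to -0.146 and -0.147 with pseudocounts of 1 and 0.1 in implantation B versus A. MMP19 turned to 0.16 in ECs+ implantation versus implantation B with library size alone. The cause was not tested. With the 1 CPM filter MMP13 was not tested in ECs+ implantation versus implantation B.

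Library size as the only scaling moved the median log2 fold change of all genes by -0.37 in defect versus normal, 0.31 in implantation A versus defect, 0.24 in ECs+ implantation versus implantation B, -0.25 in implantation B versus A and -0.31 in implantation B versus normal. The split of calls was then 3456 higher and 8894 lower, 7931 higher and 1761 lower, 8687 higher and 4894 lower, 2383 higher and 8512 lower and 4629 higher and 9431 lower, against 5715 higher and 5692 lower, 3642 higher and 3823 lower, 6501 higher and 6547 lower, 4978 higher and 4329 lower and 6796 higher and 6715 lower with TMM. DESeq2 called 7438, 3792, 6878 and 6195 genes in defect versus normal, implantation A versus defect, implantation A versus normal and implantation B versus A, where edgeR called 11407, 7465, 11522 and 9307. TPM with pseudocounts of 1 and 0.1 called 3299 and 2954 in implantation A versus normal, 3537 and 3102 in implantation B versus A and 7838 and 6850 in implantation B versus normal, where edgeR called 13511. Splits with TPM (pseudocount 1) were 2562 higher and 5442 lower in defect versus normal, 4694 higher and 959 lower in implantation A versus defect, 2231 higher and 1068 lower in implantation A versus normal, 4347 higher and 8399 lower in ECs+ implantation versus implantation B and 1012 higher and 2525 lower in implantation B versus A. Leaving out 1 library at a time gave 3521 to 11950 calls in defect versus normal and 1455 to 7556 in implantation A versus defect, both lowest without defect 3, which leaves only shallow defect libraries. Without defect 1 and 2, 1 defect library is left and assumed to vary like the other groups. There 11555 and 7820 genes and all 10 members were called in each.

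Replicate numbers did not pair the libraries: over 30 same-numbered pairs the correlation of their deviations from the group means ran from -0.026 to 0.029. With the replicate number as a block 10663, 6262, 11261 and 12957 genes were called in the 4 comparisons of the design, and 9170 and 13431 in the other 2. The block removed the calls of TIMP3 in defect versus normal and in implantation A versus defect, and no other member call. The order of groups by mean level was the same in 8 of 10 members with library size alone or TPM, and differed for MMP19 and TIMP3. Depth limits MMP8, MMP12, MMP13, MMP15, MMP17, MMP24, MMP25, MMP27, MMP28 and TIMP4 among others, which rest on few counts in the shallow defect libraries or in normal. MMP8 and MMP27 also held few counts in implantation A, implantation B and ECs+ implantation.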
